A study of Mus musculus with 35 samples.

Results

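The 67 replication-dependent histone genes measured here encode the H1, H2A, H2B, H3 and H4 proteins that package newly copied DNA. They were the protein-coding genes of the GENCODE vM1 annotation on the mm9 mouse build whose symbol begins with Hist1h, Hist2h, Hist3h or Hist4h, and they made up 67 of 22380 protein-coding genes. They comprised 6 H1, 19 H2A, 18 H2B, 11 H3 and 13 H4 genes. The RNA contacts of 8 proteins were mapped by iCLIP, in which ultraviolet light fixes a protein to the RNA it touches and reverse transcription then stops next to the fixed base. All libraries came from P19 mouse embryonal carcinoma cells, in stable clonal lines that carried 1 GFP fusion protein each, and all were precipitated with the same antibody to GFP. The groups were NXF1-GFP (3 libraries), SRSF1-GFP (4), SRSF2-GFP (5), SRSF3-GFP (3), SRSF4-GFP (3), SRSF5-GFP (4), SRSF6-GFP (3) and SRSF7-GFP (6), and cells with GFP fused only to a nuclear localization sequence (GFP-NLS) were the control. The 4 control samples were read from 1 pooled file and enter no test. The fusions of the mouse genes were carried on bacterial artificial chromosomes, so traits of a clone cannot be told apart from those of its protein.

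Most messenger RNAs end in a poly(A) tail, but those of the replication-dependent histone genes end just after a short stem-loop. The stem-loop-binding protein SLBP holds this hairpin and the U7 small nuclear ribonucleoprotein directs the cut that follows it. Most of the genes lack introns, and such transcripts leave the nucleus without having been spliced. NXF1 is the general export receptor for messenger RNA, and SR proteins such as SRSF1, SRSF3 and SRSF7 are splicing regulators that can act as adaptors between RNA and NXF1.

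Each file lists single bases and the number of cDNAs, called tags, that marked them. A base is listed only where the local density of tags passed the authors' false discovery rate threshold of 0.05, so a gene at 0 is a gene with no listed base. The total of listed tags is therefore not the sequencing depth, and it ranged from 13038 to 4459523 over the 31 libraries. Levels below are tags on the gene's own strand per 1000000 listed tags of the library (CPM). The file headers of the libraries labelled SRSF2 replicates 2 and 5 name SRSF1, and these 2 libraries hold most of the SRSF2 tags. Results on SRSF2 are therefore also given without them for H1 genes and for the single genes called. The headers place the NXF1, SRSF1, SRSF3 and SRSF4 libraries and SRSF7 replicates 4 to 6 in 2014, and all others in 2013. The series calls the replicates biological, but no source used here says that they came from separate cultures, so a p-value here reflects the spread among the deposited libraries, which may be technical. All 8 genes of pluripotent cells that were checked had tags, with Dnmt3b, Lin28a and Trim71 at mean levels of 590, 247 and 140.3 CPM, and all 8 passed the filter on low values. The median difference over all genes tested was not 0 and moved with the scaling: for NXF1 it was -1.83 on the log2 scale by total listed tags and -0.89 by trimmed means of M values. Of all genes called with NXF1, 223 of 385 were higher by total listed tags and 285 of 290 by trimmed means. The same 2 scalings gave 520 of 667 and 197 of 357 higher for SRSF3, 24 of 26 and 49 of 77 for SRSF4, 105 of 1318 and 142 of 231 for SRSF5, 237 of 279 and 27 of 77 for SRSF6, and 156 of 189 and 25 of 75 for SRSF7.

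The histone genes lie in clusters, with 55 members on chromosome 13, 9 on chromosome 3, 2 on chromosome 11 and 1 on chromosome 6, and 61 of them are annotated with a single exon. The other 6, all of H2B (Hist2h2bb, Hist1h2bp, Hist1h2bq, Hist1h2br, Hist1h2be and Hist1h2bc), have a model with 2 or 3 exons. Tags fell in the annotated span of 57 members. The other 10 had none in any library, and in 7 of those 10 no stretch of 31 bases in the reading frame occurs only once in the genome. Copies of a family are near-identical, and 8 members share their whole reading frame with another member. The sources used here do not say how reads with several matches were placed, so single H2A, H2B, H3 and H4 genes are less certain than the sums over a family. A median of 84.2% of reading-frame positions started a unique 31-base stretch in H1 genes, against 17.0% in H2A, 16.9% in H2B, 18.7% in H3 and 29.8% in H4 genes. The annotated ends also differ: 11 members end within 10 bases of the stop codon and 12 run on for over 1000 bases. Of the 57 members with tags, 53 passed the filter on low values, with 641 to 21328 tags each. The 4 that did not were Hist1h1t, the testis-specific H1 gene, Hist2h2ac, Hist1h2ba and Hist2h3c1, with at most 488 tags.

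The stem-loop carries the 3′ end of these RNAs and was the landmark for placing tags, so its sequence is shown for the members with the highest mean level in each family and for the pair of H4 genes that the comparisons below turn on. Sequences are from the mm9 reference genome and run 5′ to 3′ on the gene's strand. Capitals mark the 16 bases of the stem-loop, and the coordinates are those of the capitals.
Hist1h1d, chr13:23647656-23647671, plus strand: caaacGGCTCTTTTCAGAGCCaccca
Hist1h2ak, chr13:21845251-21845266, minus strand: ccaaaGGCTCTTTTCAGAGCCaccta
Hist1h2bk, chr13:22128169-22128184, plus strand: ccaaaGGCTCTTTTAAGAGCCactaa
Hist1h3h, chr13:21809964-21809979, plus strand: tcaaaGGCTCTTTTCAGAGCCaccca
Hist1h4d, chr13:23673819-23673834, plus strand: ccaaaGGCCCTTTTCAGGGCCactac
Hist4h4, chr6:136752519-136752534, minus strand: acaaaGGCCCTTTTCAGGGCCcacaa
Hist2h4, chr3:96066862-96066877, minus strand: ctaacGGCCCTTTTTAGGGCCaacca
A stem-loop was found in 65 of the 67 members, by a search in the 150 bases after the stop codon. The search letters were the commonest run of 16 bases whose outer 6 bases on each side can pair, and up to 4 mismatches were allowed. This commonest form, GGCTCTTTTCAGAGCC, was held by 40 members, none of them an H4 gene. All 13 H4 genes had other forms, led by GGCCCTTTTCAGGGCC in 8 of them, which differs from the commonest form at 2 positions. The stem-loop began 21 to 58 bases after the stop codon, with a median of 31.

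Histone tags were concentrated at the 3′ end of the reading frame and in the short stretch between the stop codon and the stem-loop. Of 397571 tags placed on the members, from 100 bases before the start codon to 100 bases after the stop codon, 45.3% lay in the last 100 bases of the reading frame and 41.8% between stop codon and stem-loop. The first 50% of the reading frame held 3.40%, the 100 bases before the start codon 5.64%, the stem-loop with 5 bases on either side 0.503%, and the stretch beyond it 0.426%. The drop at the stem-loop was sharp in each family: the share on the stem-loop was 0.311% for H1, 0.355% for H2A, 0.464% for H2B, 0.726% for H3 and 0.771% for H4 genes. A file that lists dense positions favours such peaks. These RNAs also end just after the stem-loop, so little RNA lies beyond it. The part of the density threshold and of this RNA end in the pattern was not tested.

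**Figure D1:**
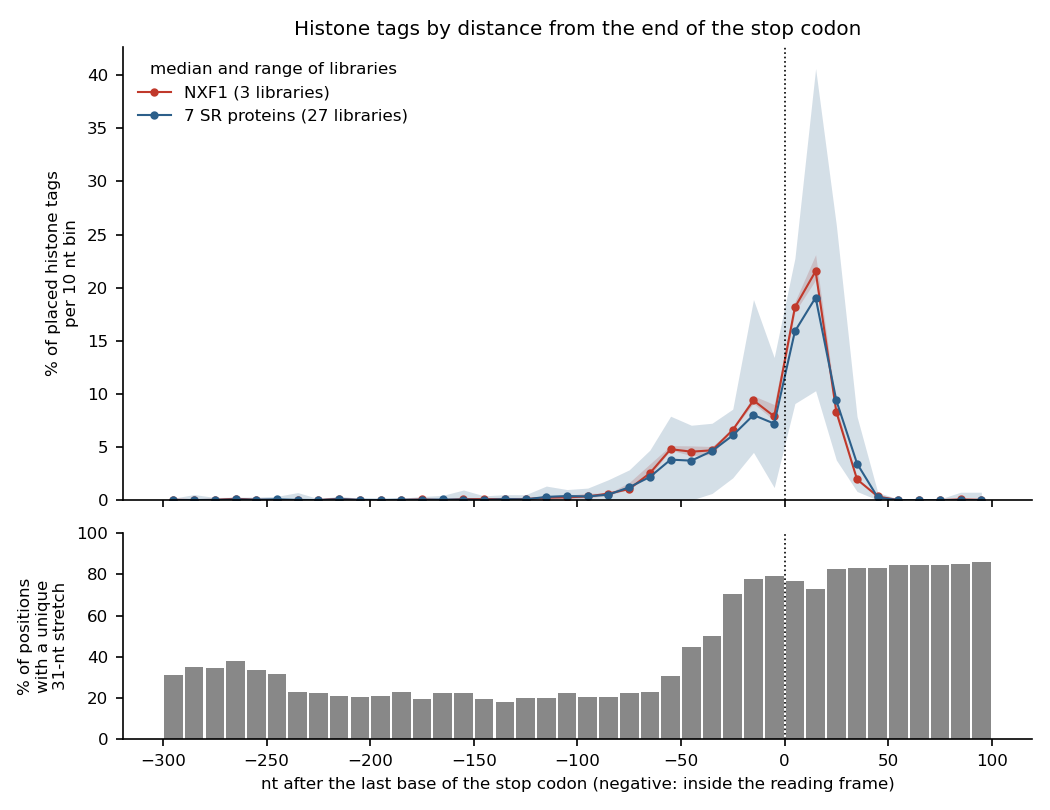
Share of placed histone tags per 10-base bin against the distance from the end of the stop codon (upper panel: median as line, lowest to highest library as band, 3 NXF1 and 27 SR protein libraries), and the percentage of positions in each bin whose following 31 bases occur once in the genome (lower panel). The NXF1 and SR protein medians both peaked in the bins just after the stop codon, at 21.6% and 19.1% in the second bin, and fell to near 0 within 50 bases.

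Many positions inside the reading frames are not unique, so the same shares were read per unique position. Only 50.7% of the positions started a stretch of 31 bases that occurs once in the genome, but 84.8% of the tags lay on them. The stretch between stop codon and stem-loop held 123 tags per unique position (sum over libraries), the last 100 bases of the reading frame 44.8, the first 50% of the reading frame 2.80 and the stretch beyond the stem-loop 0.596. H1 genes, whose reading frames are mostly unique, gave 109 tags per unique position between stop codon and stem-loop, 51.7 in the last 100 bases, 3.04 in the first 50% of the reading frame and 1.31 on the stem-loop. The skew to the 3′ end was thus also present where the mapping was unique. Within the reading frame, the last 100 bases held a median of 97.0% of tags over 51 histone genes and 9.55% over 62 other intronless coding genes, while these bases made up a median of 25.8% and 15.5% of the reading-frame length. In H1 genes, whose longer frames give 15.2% of length to the last 100 bases, the median was 78.4% (5 genes). The histone share was the higher one in 25 of 25 libraries that had at least 20 tags in both kinds of gene, at 78.2 to 97.9% for histone genes and 4.65 to 82.2% for the other intronless genes. The highest values for the other genes were 82.2% and 76.8%, in NXF1 replicates 2 and 3, where histone genes had 94.5% and 94.8%. In NXF1 replicate 1 the other genes had 42.6% and histone genes 95.1%.

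Single bases with tags in the most libraries are shown with 12 bases on either side, because they recur across libraries. The capital marks the base that carried the tags.
Hist1h4d, base 17 after the stop codon, plus strand: actcatttatttTtcttcacccaaa
Hist1h4a, base 8 after the stop codon, minus strand: gctaagacttttTtaatttgtattt
Hist1h3h, base 17 after the stop codon, plus strand: cgtctttctgtgTttttcaaaggct
Hist2h2bb, base 30 after the stop codon, plus strand: attgatcggcttTacccaaaaggct
Hist1h1d, base 26 after the stop codon, plus strand: gctttgaaaatcTcaaacggctctt
Hist1h2af, base 25 after the stop codon, plus strand: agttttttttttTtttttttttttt
The base of Hist1h4d (chr13:23673799) had 1053 tags in 30 libraries and that of Hist1h4a (chr13:23852707) 551 tags in 30 libraries. The bases of Hist1h3h (chr13:21809955), Hist2h2bb (chr3:96074085) and Hist1h1d (chr13:23647650) had 303, 331 and 280 tags in 27, 26 and 25 libraries. Over the 15 bases with the most libraries, 3 in each family, 24 to 30 libraries had tags and 14 of the bases were T. Among all placed tags, T made up 44.1 to 48.0% in the NXF1 libraries and 35.7 to 74.1% in the SR protein libraries. T moved with library size, at 54.4 to 74.1% in 8 libraries with under 100000 listed tags and 35.7 to 52.1% in 10 with over 1000000. Of the members' own bases, 24.6% between stop codon and stem-loop and 12.4% in the last 100 bases of the reading frame are T. The part of base composition in where tags lay was not tested. In H2A genes the leading bases all lay in Hist1h2af, inside a run of 27 T that spans bases 15 to 41 after the stop codon (base 25 is chr13:23626197). This run held 17324 of the 19674 tags placed on Hist1h2af, or 88.1%, and had tags in 31 of 31 libraries. The annotated gene ends 1 base after the stop codon, so the gene counts below leave the run out. The shares of placed tags and of T include it. Its 17324 tags are among the 166122 between stop codon and stem-loop, of which 58392 lay in H2A genes. The part of the run in these shares, and in how they moved with library size, was not tested.

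NXF1 tags took the same stretch as the SR protein tags. The share between stop codon and stem-loop was 49.7%, 50.8% and 50.5% in the 3 NXF1 libraries, against a lowest of 30.8%, a median of 49.8% and a highest of 77.5% in 27 SR protein libraries with at least 20 histone tags. The NXF1 values lay inside the SR protein range. The share moved with the size of the library: it was 55.1 to 77.5% in 8 libraries with under 100000 listed tags and 30.8 to 46.3% in 10 libraries with over 1000000, with no overlap. SRSF3 replicates with 409282, 2152709 and 1949249 listed tags had shares of 52.0%, 35.5% and 46.3%. In the pooled GFP-NLS control, 72.1% of 104 placed tags lay between stop codon and stem-loop and 24.0% in the last 100 bases of the reading frame, against 41.8% and 45.3% over the NXF1 and SR protein libraries. The control's 72.1% was above all 3 NXF1 values and inside the range of the libraries with under 100000 listed tags. The part of library size, of background and of the T run of Hist1h2af in the position of tags was not tested.

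**Figure D2:**
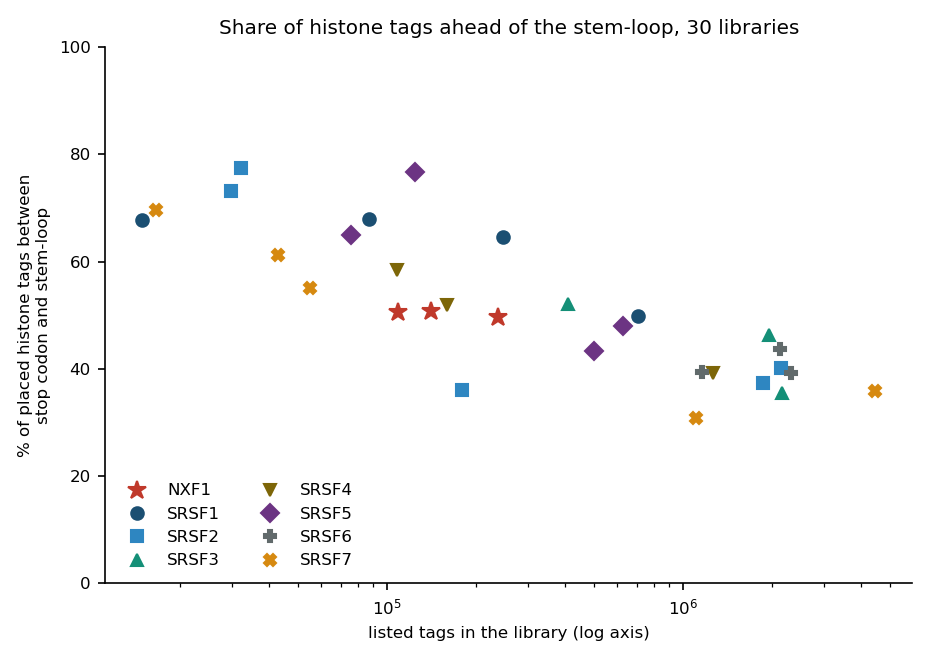
Percentage of placed histone tags between stop codon and stem-loop (vertical axis) against the listed tags of the library (horizontal log axis), 1 symbol per library for 30 libraries, with NXF1 as stars. Small libraries sit at 55.1 to 77.5% and libraries over 1000000 tags at 30.8 to 46.3%, and the NXF1 libraries lie at 49.7 to 50.8%.

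Histone genes took a small share of all listed tags that differed between proteins. They held 3.04%, 1.88% and 2.54% of the listed tags in the NXF1 libraries. The shares were 4.51%, 2.10% and 3.30% with SRSF4, 3.23%, 1.27% and 1.98% with SRSF3, and 1.22%, 2.11% and 1.57% with SRSF6. SRSF1 libraries held 1.51%, 1.96%, 1.64% and 0.698%, and the 6 SRSF7 libraries 0.0614% at the lowest, 1.85% at the median and 3.48% at the highest. The low end was held by SRSF2, with 0.326%, 0.344%, 0.347%, 0.610% and 0.731%, and by SRSF5, with 0.373%, 1.17%, 0.481% and 1.14%. The 5 SRSF2 values all lay below the lowest NXF1, SRSF3, SRSF4 and SRSF6 value. The pooled GFP-NLS control held 84 histone tags of 21880, or 0.384%, which is above 3 of the 5 SRSF2 libraries.

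The first comparison set NXF1 libraries beside those of the 7 SR proteins, to ask whether histone RNAs carried the export receptor more than its candidate adaptors. Each of the 5 families was counted as 1 unit, so that tags cannot be split between copies. H4 genes, whose protein forms the nucleosome core with H3, had 9222, 6448 and 9052 CPM in the NXF1 libraries, against a lowest of 307, a median of 3430.5 and a highest of 25489 CPM in 28 SR protein libraries. H3 genes had 4851, 3099 and 3937 CPM with NXF1, against 0, 1987 and 4777 CPM as lowest, median and highest with the SR proteins. All 3 NXF1 libraries were above the SR protein median in both families, but the ranges overlapped. H1 genes, which encode the linker histone, had 5057, 1952 and 2677 CPM with NXF1 and a median of 1623 CPM with the SR proteins. H2A genes had 5819, 3455 and 4618 CPM with NXF1, with an SR protein median of 2857 CPM. H2B genes had 5457, 3854 and 5078 CPM with NXF1, with an SR protein median of 2982 CPM. In the annotated spans NXF1 was above the SR protein median in all libraries of all 5 families. From 100 bases before the start codon to 100 after the stop codon, H2A genes had 6712, 3983 and 5483 CPM with NXF1, against an SR protein median of 4376 CPM, so that 1 NXF1 library was below it. The fitted log2 differences (NXF1 minus the SR protein mean) were 1.42 ± 0.70 for H4, 1.37 ± 0.94 for H3, 1.24 ± 1.03 for H1, 0.99 ± 0.87 for H2A and 0.80 ± 0.68 for H2B (standard error), while the median over all genes tested was -1.83. The pooled GFP-NLS control had 1143 CPM in H4, 183 in H3, 320 in H1, 914 in H2A and 1279.7 in H2B genes, from 84 tags in all. None of the 5 NXF1 differences passed an adjusted p of 0.05 with limma voom (lowest adjusted p = 0.13, for H4). Of all genes tested, 3.57% were called higher and 2.68% lower. Of the 5 families 0 had an unadjusted p under 0.05, against 39.3% of all genes in the single-gene fit. With only the 11 libraries of 50000 to 250000 listed tags, all 5 families were called, with differences of 1.04 for H1, 1.27 for H2A, 1.05 for H2B, 1.19 for H3 and 1.18 for H4 and adjusted p between 0.0011 and 0.046. That fit holds no SRSF3 or SRSF6 library, and 14.6% of all its genes were called higher and 7.47% lower. Within the 16 libraries of 2014, which hold no SRSF2, SRSF5 or SRSF6 library, the differences were 0.60 for H4 (adjusted p = 0.44), 0.999 for H3, 0.39 for H1, 0.15 for H2A and 0.20 for H2B, and none was called.

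**Figure D3:**
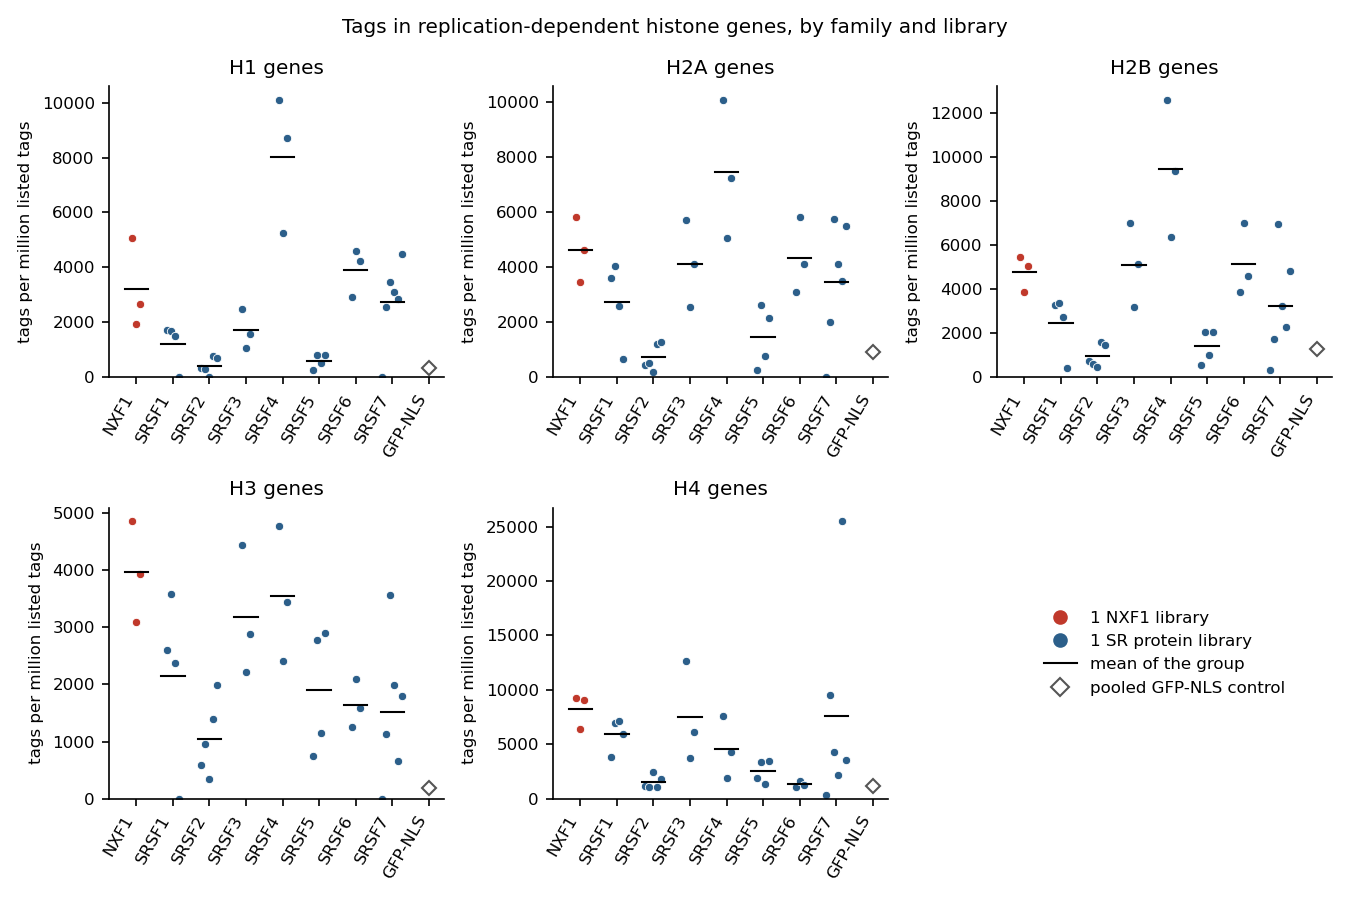
Tags per 1000000 listed tags (linear axis) in the genes of each histone family, 1 point per library, with NXF1 at the left, SRSF1 to SRSF7 after it and the pooled GFP-NLS control at the right as a diamond; bars are group means. The 3 SRSF4 libraries lie at 5268 to 10100.2 in H1 genes, above all other libraries of that panel, and 1 SRSF7 library stands at 25489 in H4 genes.

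Each SR protein was then set against the mean of the other 6, which asked whether the proteins share histone RNAs equally. SRSF4 had the highest H1 levels, at 10100.2, 5268 and 8696 CPM, against a mean of 1768 CPM over the other 6 proteins. It had 12632, 6401 and 9374 CPM in H2B genes, against a mean of 3062, and 10063, 5047 and 7215 CPM in H2A genes, against a mean of 2803. In H1 genes all 3 SRSF4 libraries lay above every library of the other proteins, but the share of all genes that separate so was not counted. The log2 differences were 3.03 ± 1.01 for H1, 2.01 ± 0.67 for H2B, 1.90 ± 0.86 for H2A and 1.34 ± 0.94 for H3 (standard error), where the median over all genes was -0.43. None was called by limma voom (adjusted p = 0.21 for H1 and H2B), with 0.307% of all genes called higher and 0.0162% lower, and within 2014 the difference was 2.35 for H1 and 1.51 for H2B. SRSF2 stood at the other end. Its 5 libraries had 342, 287, 0, 768 and 712 CPM in H1 genes, against a mean of 3034 over the other 6 proteins, and 715, 578, 472, 1619 and 1468 CPM in H2B genes, against a mean of 4479. The differences were -2.89 ± 0.83 for H1, -2.24 ± 0.71 for H2A, -1.93 ± 0.56 for H2B, -0.85 ± 0.77 for H3 and -1.23 ± 0.58 for H4, with a median over all genes of 0.09. None was called (lowest adjusted p = 0.13, where 0.210% of all genes were called lower and 0.145% higher), and without the libraries labelled replicates 2 and 5 the H1 difference was -3.54 ± 0.99 (adjusted p = 0.11). Within 2013 it was -2.14 for H1 and -1.31 for H2B (adjusted p = 0.98 for both).

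SRSF6, SRSF3, SRSF5, SRSF1 and SRSF7 were compared in the same way. SRSF6 libraries had 2925, 4597 and 4215 CPM in H1 genes, against a mean of 2453 over the other 6 proteins, and 1094, 1633 and 1229.8 CPM in H4 genes, against a mean of 4942. The differences were 1.87 ± 0.99 for H1, 1.02 ± 0.84 for H2A, 1.01 ± 0.66 for H2B and -1.44 ± 0.69 for H4 (lowest adjusted p = 0.18), with 3.43% of all genes called higher and 0.630% lower. The median over all genes with SRSF6 was 1.04, so its H2A and H2B values were near that of all genes. Within the 15 libraries of 2013, H1 (3.16), H2A (2.42) and H2B (1.99) were called higher with SRSF6, with adjusted p between 0.019 and 0.040. That fit sets SRSF6 against only SRSF2, SRSF5 and SRSF7 replicates 1 to 3, and 16.8% of all its genes were called higher and 2.16% lower. SRSF3 libraries had 12627, 3702 and 6103 CPM in H4 genes, against a mean of 3915, with differences of 1.29 ± 0.69 for H4, 1.16 ± 0.91 for H3 and 0.96 ± 0.66 for H2B, while H4 was at 0.39 within 2014 (lowest adjusted p = 0.21 over all libraries, where 7.87% of all genes were called higher and 2.31% lower). The median over all genes with SRSF3 was 0.76. SRSF5 had 264, 817, 501 and 803 CPM in H1 genes, against a mean of 3005. Its differences of -1.39 ± 0.94 for H1, -1.28 ± 0.79 for H2A and -1.27 ± 0.62 for H2B were near the median of -1.26 over all genes, and within 2013 they were -0.49, -0.02 and -0.51 (lowest adjusted p = 0.12, where 19.3% of all genes were called lower and 1.68% higher). SRSF1 was at 1.07 ± 0.63 for H4 (adjusted p = 0.38, with 1.18% of all genes called higher and 1.37% lower). No SRSF7 family was called (lowest adjusted p = 0.48, with 2.52% called higher and 0.533% lower). Over all 9 comparisons 0 of 45 family values passed with limma voom and 0 with limma-trend, and 9 had an unadjusted p under 0.05. In the 25 libraries with at least 50000 listed tags 10 of the SR protein values passed, 4 higher and 6 lower. H1 and H2B were higher with SRSF4 (2.22 and 1.59), where 0.751% of all genes were called higher and 0.0183% lower. H1, H2A and H2B were lower with SRSF2 (-2.19, -2.02 and -1.91). There 6 of the 5457 genes and families tested, these 3 included, were called lower and 3 (0.0550%) higher. The SRSF2 libraries of at least 50000 tags were replicates 2, 4 and 5. The headers of 2 and 5 name SRSF1, and this fit was not run without them. H1 and H2B were lower with SRSF5 (-1.83 and -1.28), where 26.6% of all genes were called lower and 2.77% higher. H4 was higher with SRSF3 (1.30), where 15.6% of all genes were called higher and 3.32% lower. H1 was higher and H4 lower with SRSF6 (1.24 and -1.33), where 12.7% of all genes were called higher and 0.990% lower.

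SRSF3 and SRSF7, which are close relatives in their RNA-binding domains, were also compared directly. SRSF3 libraries had 4430, 2222 and 2878 CPM in H3 genes, and the 6 SRSF7 libraries had a lowest of 0 and a highest of 3555 CPM. The log2 differences (SRSF3 minus SRSF7) were 1.87 ± 1.06 for H3, 1.02 ± 0.78 for H2B and 0.83 ± 0.81 for H4, and the median over all genes was 0.24. The interval for H3 ran from -0.28 to 4.02. No family was called with limma voom (lowest adjusted p = 0.39, with 0.533% of all genes called higher and 1.36% lower), and 0 of 5 had an unadjusted p under 0.05.

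The share of each family in the histone tags was read next, as a description with no test. H1 genes made up 22.4%, 25.0% and 26.4% of the histone tags with SRSF4 and 23.9%, 21.8% and 26.8% with SRSF6, against 7.74%, 8.31% and 7.94% with SRSF3. H4 genes made up 39.1%, 29.1% and 30.8% with SRSF3 and 30.3%, 34.3% and 35.7% with NXF1, against 8.96%, 7.74% and 7.81% with SRSF6. H3 genes made up 20.2%, 23.8%, 23.8% and 25.5% with SRSF5, against 10.2%, 9.90% and 10.0% with SRSF6. In each of these sentences the groups named first did not overlap the group they were set against. SRSF4 and SRSF6 overlapped each other in H1, as did SRSF3 and NXF1 in H4. The share of all genes that separate in this way was not counted. Other proteins had a wide spread: with SRSF7 the H1 share was 0 to 22.3% and the H4 share 14.7 to 73.3%, and with SRSF1 the H4 share was 25.4 to 84.6%. The H4 share was also high in 3 of the 6 libraries with under 50000 listed tags, at 84.6% in SRSF1 replicate 4, 70.9% in SRSF2 replicate 3 and 73.3% in SRSF7 replicate 5, and it was 17.9% in SRSF7 replicate 3, another of the 6. The part of library size in these shares was not tested.

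When each gene was fitted on its own, 22 of 477 tests of members passed an adjusted p of 0.05 with limma voom, in 14 genes and 6 comparisons. Of all 6234 genes, 26 (SRSF4) to 1318 (SRSF5) were called in a comparison, and the share for each comparison is given with its members. Against the SR proteins, 47 of the 53 members tested had a positive difference with NXF1 (median 1.09, against -1.83 over all genes). In that comparison 2 members were called higher, or 3.77%, and 0 lower, where 3.58% of all genes tested were called higher and 2.60% lower. The share called was near that of all genes. Both were H4 genes outside the large cluster on chromosome 13. Hist4h4 (ENSMUSG00000068851.2, chr6:136752589-136752900, minus strand) has a reading frame that is 99.4% unique and its annotated span is the frame alone. It had 299, 149.6 and 166 CPM in the NXF1 libraries, against a lowest of 0, a median of 0 and a highest of 122 CPM in 28 SR protein libraries, 17 of them at 0. All NXF1 values were above all SR protein values, but the share of all genes that separate in this way was not counted. The difference was 4.55 ± 0.80 (standard error, adjusted p = 0.00064), and it was called in all 43 alternatives, at 3.01 to 5.58. Hist4h4 reached the 42.1 CPM of the filter on low values only in NXF1 and SRSF3 libraries, the groups where it was called higher. Its calls, and their repeats in alternatives that keep this filter, are therefore tied to that selection. From 100 bases before the start codon to 100 after the stop codon, where most Hist4h4 tags lie, the levels were 808, 492 and 653 CPM with NXF1 and at most 457 CPM with an SR protein. Hist2h4 (ENSMUSG00000091405.1, chr3:96065627-96067234, minus strand) had 299, 114 and 138 CPM with NXF1, against 0, 12.8 and 305 CPM as lowest, median and highest with the SR proteins, and the 3 SR protein values above the lowest NXF1 value were those of SRSF3. Its difference was 2.63 ± 0.76 (adjusted p = 0.034). The Hist2h4 call was lost without NXF1 replicate 1 (2.22), 2 (2.89) or 3 (2.75) and within 2014 (1.99, adjusted p = 0.051), while Hist4h4 gave 3.58 within 2014 (adjusted p = 0.0022).

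**Figure D4:**
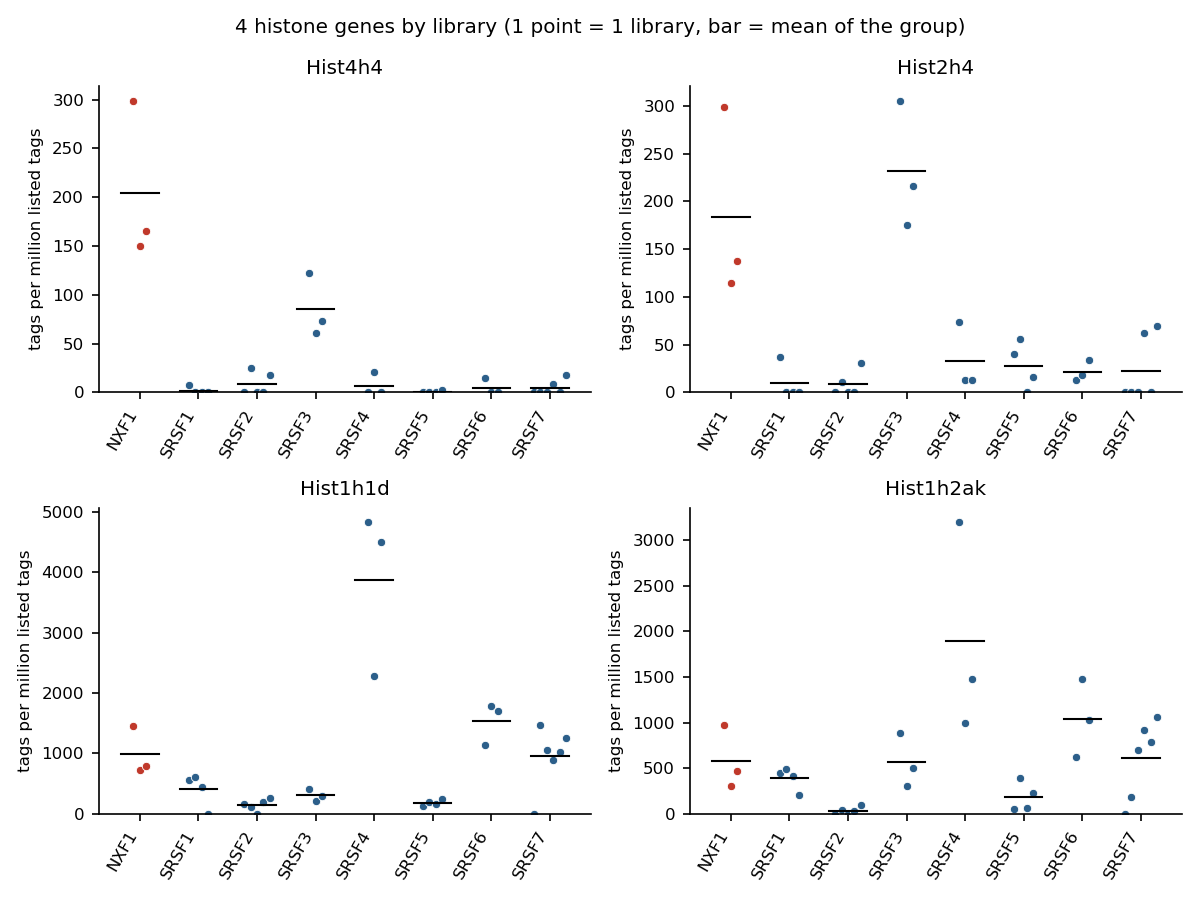
Tags per 1000000 listed tags (linear axes) in Hist4h4, Hist2h4, Hist1h1d and Hist1h2ak, 1 point per library with NXF1 at the left, and bars for group means. Hist4h4 is highest with NXF1 (150 to 299), Hist2h4 is high with NXF1 and SRSF3, Hist1h1d is highest with SRSF4 (2275 to 4833), and Hist1h2ak is at most 94.1 with SRSF2.

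The same pair of H4 genes were called higher with SRSF3 than with the other 6 SR proteins. Hist2h4 had 305, 175 and 215 CPM with SRSF3, against a highest of 73.9 CPM in the other 25 libraries, and Hist4h4 had 122, 60.9 and 72.8 CPM, against a highest of 25.3 CPM. Neither gene overlapped between the groups, but 11 and 17 of the other 25 libraries were at 0. The share of all genes that separate in this way was not counted. The differences were 3.53 ± 0.75 for Hist2h4 (adjusted p = 0.0028) and 3.81 ± 0.81 for Hist4h4 (adjusted p = 0.0025), and both calls held in all 42 alternatives, with 3.15 and 3.02 within 2014. These were 2 of 53 members, or 3.77%, where 8.34% of all genes were called higher and 2.36% lower, and the median of the members was 1.04 against 0.77 over all genes. The NXF1 and SRSF3 comparisons share the SRSF3 libraries. For Hist4h4 both also rest on the libraries through which it passed the filter on low values. Hist4h4 was also called lower with SRSF6 (-2.97 ± 0.89, adjusted p = 0.046), at 14.6, 0 and 0 CPM, where 15 of the 25 other libraries were also at 0, but from 100 bases before the start codon to 100 after the stop codon the difference was -0.39 (adjusted p = 0.67). Hist1h4n, the other SRSF6 call, had 6.03, 6.92 and 6.14 CPM with SRSF6 and a median of 23.3 CPM in the others (-2.34 ± 0.69, adjusted p = 0.043). All of its placed tags lay before the start codon, but its reading frame holds no unique 31-base stretch. The call held in 27 of 41 alternatives. It was lost by trimmed means and without SRSF6 replicate 1, 2 or 3. The SRSF6 calls were 2 of 53 members, where 0.674% of all genes were called lower and 3.80% higher.

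SRSF4 had 2 members called higher and 0 lower of 53, where 0.385% of all genes were called higher and 0.0321% lower, and 51 of 53 members had a positive difference (median 1.36, against -0.43 over all genes). Hist1h1d (ENSMUSG00000052565.5, chr13:23646901-23650721, plus strand), 1 of the somatic linker histone genes, had 4833, 2275 and 4499 CPM with SRSF4, against a lowest of 0, a median of 293 and a highest of 1779 CPM in the other 25 SR protein libraries. The groups did not overlap, but the share of all genes that separate in this way was not counted. The difference was 3.45 ± 0.83 (adjusted p = 0.046), and it lay between 2.77 and 4.06 in the alternatives, in 21 of 43 of which it was called; it was not called without SRSF4 replicate 1 (3.27), 2 (3.84) or 3 (3.31), and within 2014 it was 3.03 (adjusted p = 0.049). All 5 tested H1 genes were above 0 with SRSF4, at 2.42 to 3.45, and 5 of 5 had an unadjusted p under 0.05, as had 9.29% of all genes (4.81% higher). Hist1h2af was called in its annotated span (3.99 ± 0.86, adjusted p = 0.020), with 139, 316 and 383 CPM with SRSF4 and at most 169.6 in the others. With the T run after the stop codon included its difference was 2.06 (adjusted p = 0.31). The call was also lost without SRSF4 replicate 1 (adjusted p = 0.11), 2 (3.85, adjusted p = 0.13) or 3 (3.71, adjusted p = 0.27) and within 2014 (2.01, adjusted p = 0.25).

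SRSF2 and SRSF5 had only lower calls. With SRSF2, 5 of 53 members (9.43%) were called lower, where 0.289% of all genes were called lower and 0.144% higher, and 51 of 53 members were below 0 (median -1.71, against 0.09 over all genes). They were the H2A genes Hist1h2ak and Hist1h2af (-4.50) and the H2B genes Hist1h2bl (-2.66), Hist1h2bh (-2.62) and Hist1h2bf (-3.33). The calls held in 41 of 43 alternatives for Hist1h2ak and 37 of 42 for Hist1h2af. For Hist1h2bl, Hist1h2bh and Hist1h2bf they held in 13, 17 and 28 of 43, and were lost by trimmed means and by median ratios. Hist1h2ak (ENSMUSG00000063021.2, chr13:21845264-21845776, minus strand) had 0, 37.2, 0, 27.8 and 94.1 CPM with SRSF2, against 0, 503 and 3197 CPM as lowest, median and highest in the other 23 libraries. The SRSF2 libraries were all low, and 3 of the 23 others were no higher than the highest of them. The difference was -3.74 ± 0.69 (adjusted p = 0.0027) and -4.38 (adjusted p = 0.021) without the libraries labelled replicates 2 and 5, when the other 4 were not called. With the T run included, Hist1h2af was at -2.40 with SRSF2 (adjusted p = 0.084) and at -1.86 with SRSF5 (adjusted p = 0.058), and was called with neither. Within 2013 the Hist1h2ak difference was -3.00 (adjusted p = 0.29). With SRSF5, 9 of 53 members (17.0%) were called lower, close to the 19.5% of all genes (1.68% higher), with a member median of -1.21 against -1.26 over all genes. They were Hist1h2bl, Hist1h2bm, Hist1h2bj, Hist1h2bh and Hist1h2bf of H2B, Hist1h2ah, Hist1h2af and Hist1h2ac of H2A, and Hist1h1e of H1, at -2.06 to -4.03, and no H3 or H4 gene. Scaling by trimmed means left 0 of the 9, and within 2013 the 9 differences were -0.99 to -2.49 with none called. No member was called with SRSF1 (1.20% of all genes higher and 1.36% lower; 5 members with an unadjusted p under 0.05), SRSF7 (2.50% and 0.529%; 0 members) or in SRSF3 minus SRSF7 (0.594% and 1.33%; 2 members).

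The members with the highest mean level in each family, other than those above, had the levels given here. Hist1h4d had 1962, 1681 and 2107 CPM with NXF1 and a median of 888 CPM with the SR proteins, and Hist1h4a and Hist1h4h had NXF1 values of 791 to 1361 and 784 to 1053 CPM with SR protein medians of 433 and 276. Among H3 genes, Hist1h3h, Hist1h3c and Hist1h3i had 413 to 804, 556 to 720 and 292 to 636 CPM with NXF1 and SR protein medians of 268, 281 and 225. Among H2B genes, Hist2h2bb had 1297, 1218 and 1637 CPM with NXF1 and a median of 503.5 with the SR proteins, while Hist1h2bk was highest with SRSF4, at 3955, 1384 and 2453 CPM. Hist1h2be had 306 to 531 CPM with NXF1 and 665 to 1284 with SRSF4. Hist1h1e and Hist1h1c also had their highest group means with SRSF4, at 996 to 1885 and 1045 to 2005 CPM, as did Hist1h2ab, at 839 to 1589. Hist1h2ai had 350 to 510 CPM with NXF1 and 440 to 1053 with SRSF4.

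Related genes were counted beside the members. Of 11 replication-independent histone genes, which make polyadenylated or both kinds of RNA, 5 were tested, and the highest mean levels were those of H3f3b (124 CPM), H2afx (97.8) and Cenpa (71.7). None was called with NXF1, and their median difference was 0.60. H2afx, the gene of the DNA-damage histone H2AX, was called higher with SRSF3 (2.92 ± 0.66, adjusted p = 0.0041) and in SRSF3 minus SRSF7 (3.49 ± 0.82, adjusted p = 0.016). H3f3b, an H3.3 gene, was lower with SRSF1 (-3.68 ± 0.76, adjusted p = 0.0052). Each was 1 of 5 tested genes, where 8.34%, 0.594% and 1.36% of all genes were called in the same direction. Of 20 genes whose proteins form or turn over histone 3′ ends, 15 were tested, and Srrt (263 CPM), Sympk (111) and Snrpb (102) had the highest means. Their median difference with NXF1 was -2.96, below the -1.83 of all genes, and 2 of 15 were called lower, where 2.60% of all genes were. They were Srrt, which encodes the cap-complex partner ARS2 (-5.30 ± 1.51, adjusted p = 0.033), and Sympk, a scaffold of the cleavage complex (-4.33 ± 1.25, adjusted p = 0.033). Casp8ap2, which encodes the histone pre-mRNA processing factor FLASH, was called higher with SRSF6 (2.96 ± 0.70) and SRSF7 (1.98 ± 0.57) and lower with SRSF5 (-3.87 ± 0.84), as were Cpsf2 (-3.40 ± 0.89) and Snrpf (-2.77 ± 0.92). These were 3 of 15 with SRSF5, where 19.5% of all genes were called lower. Casp8ap2 was 1 of 15 with SRSF6 and with SRSF7, where 3.80% and 2.50% of all genes were called higher. Slbp itself had no call, was listed at 0 in the NXF1 libraries and averaged 49.8 CPM in the SR protein libraries. Lsm10, Lsm11, Zfp473, Casp8ap2, Cpsf2 and Snrpe of the same list were also at 0 with NXF1. Of the 8 pluripotency genes, L1td1 was called lower with NXF1 and SRSF5 and higher with SRSF6. Utf1 was lower with SRSF1 and higher with SRSF3, and Utf1 and Sall4 were higher in SRSF3 minus SRSF7. Of all genes, 2.60%, 19.5% and 1.36% were called lower with NXF1, SRSF5 and SRSF1. Called higher were 3.80% with SRSF6, 8.34% with SRSF3 and 0.594% in SRSF3 minus SRSF7.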

How the data were processed

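The authors mapped iCLIP reads to the mm9 mouse genome and deposited, for each library, single bases with a signed score, which is the whole number of cDNAs at that base and strand, kept only where the density in a neighbourhood of 15 nucleotides passed a false discovery rate of 0.05 against 100 permutations per the file headers. The submitters' processing notes name CASAVA 1.4. Aligner settings were not stated in the sources used here.

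Scores on the annotated strand were summed over each GENCODE vM1 gene and, for families, over their members. Differences were fitted with limma voom (limma 3.58.1, R 4.3.3) in 1 model of the 31 libraries, with total listed tags as library size and Benjamini-Hochberg adjustment over all 6186 rows (families) or 6234 genes (single genes). A gene was tested if 3 or more libraries reached 42.1 CPM, the level of 10 tags in the library of median total (237488), and its tags summed to 15 or more. A call is an adjusted p under 0.05, and values after ± are standard errors. The steps were tested on simulated data. Tables and plots used Python 3.11.15, pandas 2.3.3, numpy 2.4.6 and matplotlib 3.10.9.

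Named were the 5 families, up to 3 members per family with the highest mean CPM, every member called, and from other lists the called genes and the 3 highest. The members and lists were chosen with earlier results of these data known. Pooled files were used for the control only.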

Additional observations from a re-analysis of the deposited data

Results flagged for a closer look

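Within-group gaps were looked for in 32 sets of 4 to 6 libraries, and 2 had a library far from the others, where chance gives about 1 in 20. H1 genes were listed at 0 CPM in SRSF1 replicate 4, against 1496 to 1729 CPM in the other 3 SRSF1 libraries. H4 genes had 25489 CPM in SRSF7 replicate 5, against 307 to 9520.2 CPM in the other 5 SRSF7 libraries. These libraries have 14900 and 16556 listed tags, and the part of library size was not tested.

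Of the members with no tag in the annotated gene, 2 had tags within 100 bases of their reading frame. Hist1h2aa, an H2A gene, had 447 such tags and Hist1h4m, an H4 gene, had 38, while the pooled GFP-NLS control had 0 at both.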

How the results depend on the processing

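All 28 family differences with a direction above kept it in every one of the 47 settings that could be fitted, but 16 of the 45 did not, and those are given without a direction. Of 938 repeats of the single-gene calls, 717 were called again, 220 were not and 1 changed sign (Hist1h2bh with SRSF2, 0.064 in libraries of 50000 to 250000 tags). Only Hist4h4 with NXF1, and Hist4h4 and Hist2h4 with SRSF3, were called in every alternative. Hist4h4 reached the level of the filter only in NXF1 and SRSF3 libraries.

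For NXF1 families, 5 were called in libraries of 50000 to 250000 tags and 1 with at least 50000, against 0. For SR protein families the counts were 7, 10 and, within 2013, 3, against 0. NXF1 single-gene calls, 2 in the report, became 14 when scaled by protein-coding tags, 1 with no filter, 4 with the filter in 6 libraries, 1 with limma-trend, 15 with 50000 to 250000 tags, 12 with at least 50000 and 1 within 2014. Of all 6234 genes, 385 were called with NXF1 in the report and 595 by protein-coding tags, of which 223 and 473 were higher. The 20 SR protein single-gene calls became 6 by trimmed means, 34 by protein-coding tags, 7 by median ratios, 10 with no filter, 3 with limma-trend, 49 with at least 50000 tags and 4 within 2014. Calls over all genes in the report, by trimmed means and by protein-coding tags were 160, 215 and 560 with SRSF1. They were 27, 33 and 146 with SRSF2, 667, 357 and 878 with SRSF3, and 26, 77 and 168 with SRSF4. With SRSF5 they were 1318, 231 and 823, with SRSF6 279, 77 and 227, and with SRSF7 189, 75 and 264. Where no share over all genes is given, the counts say nothing particular to histone genes. SRSF3 minus SRSF7 went to 2 calls with limma-trend and 1 with at least 50000 tags, against 0. With each listed base counted once, the median share was 50.3% in the last 100 bases of the frame (39.8% by tags) and 31.7% between stop codon and stem-loop (50.2% by tags). The causes were not tested.

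Leaving out 1 library at a time gave 0 NXF1 families, 0 to 2 SR protein families (2 without SRSF1 replicate 4 or SRSF7 replicate 1), 1 to 2 NXF1 genes, 11 to 28 SR protein genes and 0 for SRSF3 minus SRSF7. The SR protein count fell to 13 without SRSF2 replicate 2, SRSF5 replicate 1 or SRSF6 replicate 2 and to 11 without SRSF5 replicate 2. With the replicate number as a block, 13 SR protein genes, 3 NXF1 genes and 0 families were called. The deviations of same-numbered libraries from their group means had a median r of 0.0092 over 91 pairs (-0.36 to 0.43). Over 325 pairs with different numbers it was -0.0069 (-0.44 to 0.57). The headers of some same-numbered libraries, such as SRSF3 and SRSF4 replicate 1, give the same year and lane name. The part of the lane was not tested. Count models were not run, because the deposited scores passed a density threshold.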
